A study of Mus musculus with 6 samples.

Results

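The genes described here are the organic ion carriers and drug efflux pumps on expression arrays of mouse choroid plexus. They comprise every probe set whose deposited symbol starts with Slco, Slc22a, Abcb, Abcc or Abcg and a digit, apart from Slc22a6, Abcc9 and Abcg1, which were left out by rule. This gave 63 genes among 25206 probe sets, of which 15 were Slco, 24 Slc22a, 10 Abcb, 9 Abcc and 5 Abcg genes. Each probe set stands for 1 Entrez gene. The tissue came from mice of the C57BL/6J strain, 3 of them young (2 to 3 months) and 3 aged (20 to 22 months), and each array is labelled with a mouse of its own. Neither the sex of the animals nor any treatment is given in the sources used here. The comparison was of aged with young tissue.

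The choroid plexus epithelium separates blood from cerebrospinal fluid and, besides secreting that fluid, clears organic anions, drugs and metabolites from it. Carriers of the Slco family (organic anion transporting polypeptides) exchange bile salts, thyroid hormones, prostaglandins and conjugated steroids across the membrane without using ATP. Carriers of the Slc22a family move organic anions, organic cations, carnitine and related zwitterions. Many pumps of the Abcb, Abcc and Abcg families use ATP to expel drugs, conjugates, lipids or peptides, while several Abcb proteins sit in mitochondria or lysosomes. In the brain, Abcb1a and Abcg2 are best known from the luminal membrane of capillary endothelium, and Abcc1 and Abcc4 from the basolateral membrane of the choroid plexus epithelium.

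Values are log2 expression after RMA, and all differences below are aged minus young on that scale. Levels are read against a background guide of 3.46, the 95th percentile of the means of 1350 olfactory and vomeronasal receptor probe sets. All 14 markers of the choroid plexus epithelium lay above the guide on all 6 arrays, with a list mean of 10.80 to 11.12 in young and 11.02 to 11.10 in aged. Correlations between arrays ran from 0.982 to 0.990. Young replicate 3 stood apart in markers of the meninges and the vessel wall. The mean of 10 arachnoid barrier markers was 7.18 there and 5.53 to 6.12 on the other arrays, that of 9 fibroblast markers 6.71 against 5.25 to 5.91, and that of 8 mural markers 5.60 against 4.58 to 4.94. The 4 erythroid markers had means of 2.58 to 3.98 in young and 2.74 to 3.26 in aged. Young replicate 1 had a lower top of the scale (12.13, against 13.29 to 13.32 elsewhere). Several gene differences are also given without 1 of these arrays, while the marker list values use all 6 arrays.

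No carrier or pump was called as different between the age groups. Of the 63 genes, 0 passed the limma test at a Benjamini-Hochberg adjusted p under 0.05 over all probe sets, where 0.0793% of all probe sets did, 0.0595% higher and 0.0198% lower. Limma gave, at an unadjusted p under 0.05, 2 higher genes, Abcg2 and Abcb9, and 3 lower, Slco3a1 and Slco1a6 among them. These 5 genes are 7.94% of the 63, and the share over all probe sets was 7.77%, with 3.82% higher and 3.96% lower. The aged and young values did not overlap in 9 genes, or 14.3%, where 13.6% of all probe sets showed such separation. In 5 of the 9 the aged values were the higher (6.69% of all probe sets) and in 4 the lower (6.93%). Of the 28 genes above the guide on all 6 arrays, 8 (28.6%) did not overlap, against 16.6% of all probe sets above it on all arrays. At an unadjusted p under 0.05 with limma these shares were 14.3% (4 genes) and 9.9%. The difference between these shares was not tested. The median difference was 0.05 over the 63 genes and -0.0018 over all probe sets, with 37 genes on the positive and 26 on the negative side. Among the 28 genes above the guide on all arrays, 14 were positive and 14 negative (median 0.03). The other 35 genes, not above it on all arrays, held 23 positive and 12 negative differences (median 0.05). Over the 63 genes the median difference was 0.02 without young replicate 3 and 0.07 without young replicate 1. By family the median difference was 0.03 for Slco, 0.01 for Slc22a, -0.03 for Abcb, 0.17 for Abcc and 0.14 for Abcg. Without aged replicate 2 the count of higher genes at an unadjusted p under 0.05 was 4, and without young replicate 1 the count of lower genes was 1. The shares of all probe sets past this rule were not computed for these fits, so these counts have no background beside them.

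**Figure D1:**
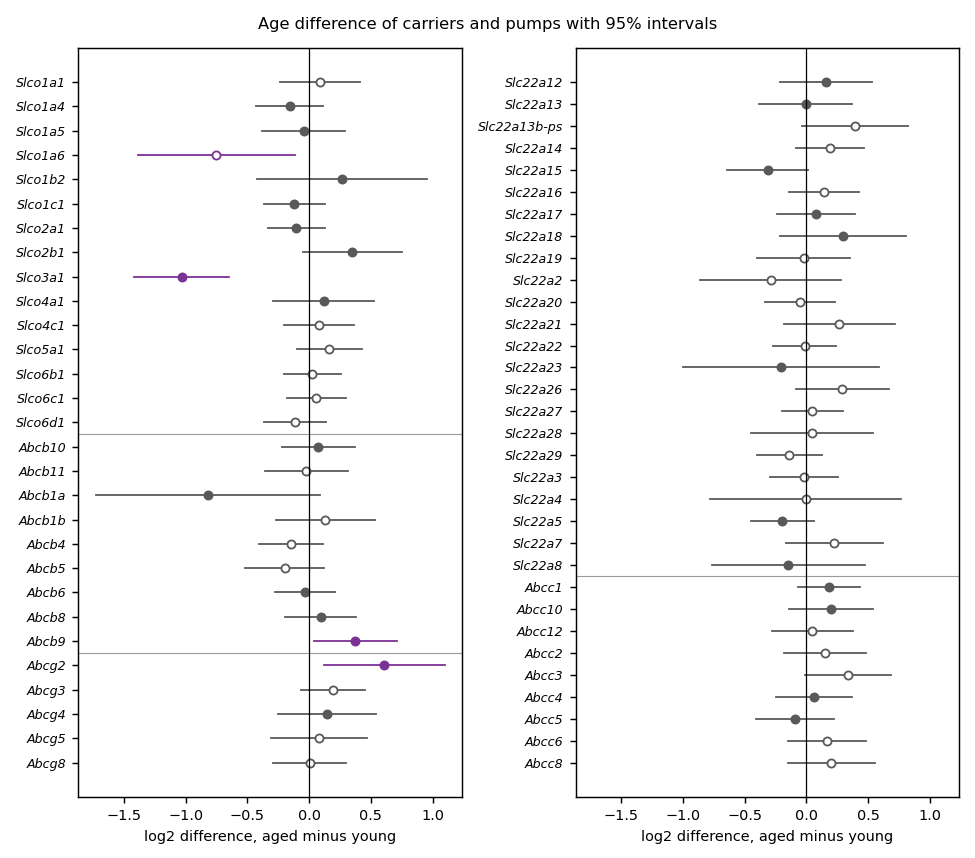
Log2 difference (aged minus young, horizontal axis) of the carriers and pumps with 95% limma intervals, by family, without the genes not reported here. Filled points mark genes above the background guide on all arrays and purple marks an unadjusted p under 0.05. The interval of Slco3a1, -1.42 to -0.65, lies farthest from 0, while most others span 0.

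The promoter sequences below are those of the genes with an unadjusted p under 0.05 that the RefSeq promoter table (GRCm38.p6) holds, shown as the sequence next to the starts of the genes whose groups differed by that rule. The table holds 50 of the 63 genes, 3 of these 5 among them. Each sequence is the 250 bases before an annotated start, 5′ to 3′ on the gene's strand. Abcg2 has 3 annotated starts, and its probe set does not tell them apart.
Abcg2, most upstream window (chr6:58584283-58584532, plus strand): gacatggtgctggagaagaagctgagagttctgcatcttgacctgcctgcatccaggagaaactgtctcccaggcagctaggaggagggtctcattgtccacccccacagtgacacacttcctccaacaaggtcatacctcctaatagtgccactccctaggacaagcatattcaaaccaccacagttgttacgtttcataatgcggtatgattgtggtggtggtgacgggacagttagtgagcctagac
Abcg2, middle window (chr6:58596422-58596671, plus strand): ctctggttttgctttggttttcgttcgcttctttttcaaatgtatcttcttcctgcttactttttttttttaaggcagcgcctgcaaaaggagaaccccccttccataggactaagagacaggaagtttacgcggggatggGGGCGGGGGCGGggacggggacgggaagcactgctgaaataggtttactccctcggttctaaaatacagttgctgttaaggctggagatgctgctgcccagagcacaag
Abcg2, most downstream window (chr6:58640296-58640545, plus strand): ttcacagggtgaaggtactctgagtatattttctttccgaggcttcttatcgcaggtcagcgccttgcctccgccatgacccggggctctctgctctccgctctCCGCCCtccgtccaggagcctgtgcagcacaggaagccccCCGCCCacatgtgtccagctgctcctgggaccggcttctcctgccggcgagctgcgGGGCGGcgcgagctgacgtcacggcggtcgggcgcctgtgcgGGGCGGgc
Abcb9 (chr5:124095799-124096048, minus strand): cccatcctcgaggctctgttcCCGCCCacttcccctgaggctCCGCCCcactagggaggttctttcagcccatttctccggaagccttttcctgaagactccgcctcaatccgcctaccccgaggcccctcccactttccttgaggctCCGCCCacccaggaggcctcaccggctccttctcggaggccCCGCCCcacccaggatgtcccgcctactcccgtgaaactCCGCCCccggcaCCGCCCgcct
Slco1a6 (chr6:142186150-142186399, minus strand): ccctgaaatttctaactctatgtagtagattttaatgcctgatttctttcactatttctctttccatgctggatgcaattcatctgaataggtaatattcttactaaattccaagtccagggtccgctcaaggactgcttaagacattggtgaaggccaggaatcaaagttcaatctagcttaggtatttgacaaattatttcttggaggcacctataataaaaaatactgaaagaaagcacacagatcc
Capitals mark the GC box GGGCGG on either strand, the only motif of the 4 searched that was present. It occurred 0, 2 and 4 times in the Abcg2 windows in the order printed, 6 times in Abcb9 and 0 times in Slco1a6. Of all 32851 promoter windows of this length, 32.7% held it at least once. The windows differed in base composition. Bases G and C made up 51.2%, 50.0% and 67.6% of the Abcg2 windows, 67.6% of Abcb9 and 36.4% of Slco1a6, against a median of 52.4% over all windows. The antioxidant response core TGACNNNGC (in 10.2% of windows), the xenobiotic response core GCGTG (28.2%) and the TATA box TATAAA (12.4%), each searched on both strands, had no match in these 5 windows. The downstream Abcg2 window held 23 CpG dinucleotides and the Abcb9 window 17, against 3 and 10 in the other Abcg2 windows, 1 in Slco1a6 and a median of 6 over all windows.

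Not all of the genes gave signal above background. On all 6 arrays 28 genes lay above the guide, 8 Slco, 8 Slc22a, 6 Abcb, 4 Abcc and 2 Abcg genes. Another 28 lay below it on every array, and 7 were above it on some arrays. The 28 dim genes include carriers known mainly from liver, kidney or testis. Among them were the testis carriers Slco6b1, Slco6c1 and Slco6d1, the kidney and liver carriers Slc22a7 and Slc22a19, and the bile salt export pump Abcb11. Their differences are compressed by the array. They enter the counts and medians given above and are not read singly.

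**Figure D2:**
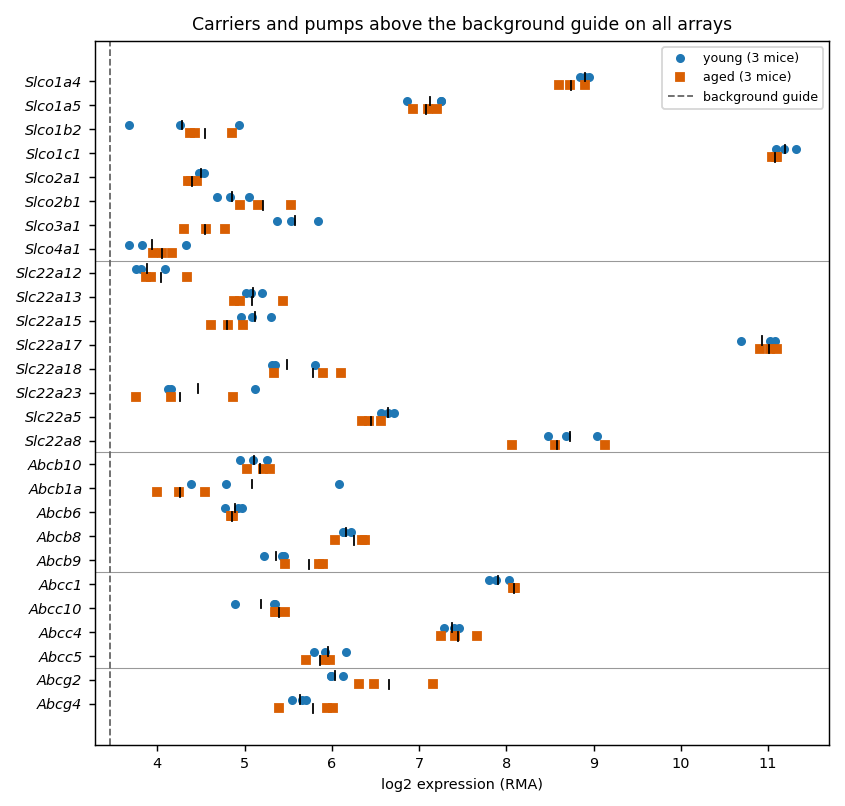
Log2 expression (horizontal axis) of genes above the background guide (dashed line, 3.46) on every array, without those not reported here, with 1 point per mouse and a black tick at each group mean. Young and aged points interleave for most genes, and Slco3a1 is the Slco gene with the widest gap between its groups.

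Slco3a1 showed the smallest p of the 63 genes. It encodes a carrier known from the human protein to move prostaglandins and thyroxine. It stood at 5.53, 5.38 and 5.84 in the young mice and at 4.56, 4.31 and 4.77 in the aged mice. All aged values lay below all young values. The means were 5.58 ± 0.24 and 4.55 ± 0.23 (SD, n = 3 each), a difference of -1.03 (SE 0.17), or 2.05-fold, with a limma adjusted p of 0.129. Leaving out any 1 array kept the difference between -1.15 and -0.90, with limma adjusted p from 0.150 to 0.418, and it was -0.90 without young replicate 3. Most endothelial, mural and fibroblast markers were lower in aged too. The endothelial marker Mfsd2a (difference 0.42) and the mural marker Cspg4 (0.22) went the other way. The mean of the 14 endothelial markers was 4.93 to 5.38 in young and 4.61 to 4.71 in aged. Of these, 10 were lower at an unadjusted p under 0.05 with limma, where 3.96% of all probe sets were, and 2 lay below the guide on every array. The mean of the 8 mural markers was 4.92 to 5.60 in young and 4.58 to 4.78 in aged (median difference -0.45, with 2 lower genes by that rule), and that of the 9 fibroblast markers 5.66 to 6.71 and 5.25 to 5.69 (median difference -0.48, with 4 lower). The part of these cells in the Slco3a1 difference was not tested. In whole tissue, fewer cells of a type and less RNA per cell cannot be told apart.

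Slco1a6, a carrier known mainly from mouse kidney, stood at 3.56, 4.17 and 2.98 in young and at 2.87, 2.98 and 2.59 in aged. The groups touched, since young replicate 3 and aged replicate 2 were both at 2.98, and only young replicates 1 and 2 exceeded the guide. The difference was -0.75 (SE 0.28, limma adjusted p = 0.572), and it was -0.45 without young replicate 2. Slco1a6 neighbours Slco1a5 in the mouse genome. Close relatives of this subfamily may share hybridisation, which was not tested.

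The Slco carriers best known from this epithelium overlapped between the groups. Slco1c1, which imports thyroxine, was at 11.19, 11.32 and 11.09 in young and at 11.10, 11.05 and 11.09 in aged. Its difference was -0.12, with a 95% interval of -0.37 to 0.13, and it was -0.06 without young replicate 2. Slco1a5, an apical carrier of organic anions and thyroid hormone, was at 6.86, 7.25 and 7.26 in young and at 6.93, 7.10 and 7.21 in aged. Its interval ran from -0.38 to 0.29. Slco1a4, a carrier of bile salts and steroid conjugates that brain endothelium also makes, was at 8.90, 8.85 and 8.95 in young and at 8.90, 8.60 and 8.73 in aged, with an interval of -0.43 to 0.11 and a difference of -0.16 that was -0.09 without aged replicate 2. Over the 3 genes limma adjusted p ran from 0.786 to 0.966.

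Among the other detected Slco genes, Slco2b1, a carrier of steroid sulfates that mouse microglia also make, stood at 4.68, 4.84 and 5.06 in young and at 4.95, 5.15 and 5.53 in aged. The groups overlapped, with a difference of 0.35 (SE 0.17, limma adjusted p = 0.687) that was 0.19 without aged replicate 3. The mean of 12 macrophage markers was 4.33 to 4.78 in young and 4.71 to 5.17 in aged, highest on the same array. At an unadjusted p under 0.05 with limma, 6 of them were higher and 3 lower, where 3.82% and 3.96% of all probe sets were. Of the 12 markers, 1 lay below the guide on every array. The part of macrophages in the Slco2b1 values was not tested. Slco2a1, the prostaglandin carrier, was at 4.49, 4.53 and 4.48 in young and at 4.35, 4.45 and 4.38 in aged. The groups did not overlap, but the difference was -0.10 (SE 0.10, limma adjusted p = 0.836). Slco1b2, a liver carrier of bilirubin and bile salts, ranged from 3.67 to 4.93 in young and from 4.37 to 4.85 in aged. Its difference of 0.26 was -0.05 without young replicate 3. Slco4a1, a thyroid hormone carrier, ranged from 3.67 to 4.33 in young and from 3.95 to 4.17 in aged.

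**Figure D3:**
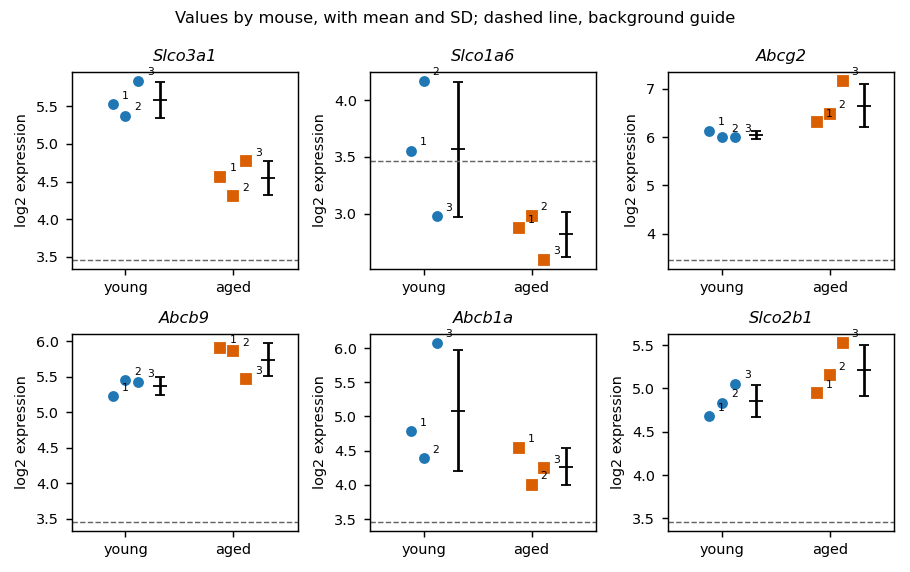
Log2 expression (vertical axes, with a separate range in each panel) of 6 genes by mouse, numbered by replicate, with the mean and SD of each group and the background guide as a dashed line. Slco3a1 separates by age, Abcg2 is highest in aged replicate 3, and Abcb1a is high in young replicate 3 alone.

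Among the Slc22a genes, 0 of 24 had an unadjusted p under 0.05 with limma, where 7.77% of all probe sets did. With so few genes this count does not set the family apart. Slc22a8, the organic anion transporter Oat3 that takes up anions from the cerebrospinal fluid side, stood at 8.68, 8.48 and 9.04 in young and at 9.13, 8.56 and 8.06 in aged. The spread within the aged mice exceeded the difference between the means of -0.15, and the 95% interval ran from -0.77 to 0.47. Its direction changed without young replicate 3 (0.01) or aged replicate 3 (0.12). Slc22a17, a receptor of the iron-binding protein lipocalin 2, was at 10.69, 11.02 and 11.08 in young and at 11.10, 11.03 and 10.90 in aged, with an interval of -0.24 to 0.39. Without young replicate 1 its difference was -0.04 in place of 0.08.

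Slc22a5, the sodium-coupled carnitine carrier, stood at 6.71, 6.65 and 6.57 in young and at 6.56, 6.34 and 6.43 in aged. It was the Slc22a gene whose groups did not overlap, although the closest values were 6.57 and 6.56, and its difference was -0.20 (SE 0.11, limma adjusted p = 0.733). Slc22a15, a carrier of zwitterions in its human form, had the smallest p of the family. It stood at 5.30, 5.08 and 4.96 in young and at 4.81, 4.61 and 4.98 in aged, with a difference of -0.31 (SE 0.14, limma adjusted p = 0.653). Slc22a21, a carnitine carrier of mice, ranged from 3.398 to 4.115 in young and from 3.81 to 4.21 in aged. Slc22a4, which carries ergothioneine, ranged from 2.85 to 3.45 in young and from 2.60 to 3.98 in aged, above the guide on aged replicate 1 alone. Slc22a5, Slc22a21 and Slc22a4 lie next to each other in the mouse genome.

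Of the other detected Slc22a genes, the urate carriers Slc22a12 and Slc22a13 ranged from 3.75 to 4.09 and from 5.01 to 5.20 in young. In aged they ranged from 3.87 to 4.34 and from 4.88 to 5.44. Slc22a18, an imprinted gene, ranged from 5.32 to 5.80 in young and from 5.34 to 6.11 in aged, with a difference of 0.29 (SE 0.22) that was 0.13 without aged replicate 2, 0.45 without young replicate 3 and 0.52 without aged replicate 3. Slc22a23, an orphan carrier, ranged from 4.12 to 5.12 and from 3.75 to 4.87. Its difference of -0.21 was 0.12 without young replicate 3 and 0.05 without aged replicate 2. Of the organic cation transporters, Slc22a3 lay below the guide on every array and Slc22a2 ranged from 3.42 to 4.43 over all arrays.

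Abcb9, a lysosomal peptide transporter, stood at 5.22, 5.45 and 5.43 in young and at 5.90, 5.86 and 5.47 in aged. All aged values lay above the young ones, aged replicate 3 by the least, and the difference was 0.37 (SE 0.15, limma adjusted p = 0.590). The organelle transporters Abcb10, Abcb8 and Abcb6 overlapped between the groups. Abcb10, of the inner mitochondrial membrane, ranged from 4.95 to 5.26 in young and from 5.03 to 5.29 in aged. Abcb8, also mitochondrial, ranged from 6.13 to 6.22 and from 6.03 to 6.38, and Abcb6, linked to porphyrin transport, from 4.77 to 4.97 and from 4.84 to 4.87.

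Abcb1a, 1 of the P-glycoprotein genes of the mouse, stood at 4.78, 4.39 and 6.08 in young and at 4.54, 4.001 and 4.24 in aged. Young replicate 3 alone stood high, and the other young values overlapped the aged ones. The difference was -0.82 (SE 0.39, limma adjusted p = 0.678) and was -0.32 without young replicate 3. The endothelial list mean on that array, 5.38, was the highest of the 6, with 5.34 on young replicate 1. Its paralogue and neighbour Abcb1b lay between 2.45 and 2.94 on all arrays, below the guide, as did the phosphatidylcholine transporter Abcb4 next to it, between 2.79 and 3.08.

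The same array was high in other carriers, a pattern chosen after the values were seen. On young replicate 3, Slc22a23 was at 5.12 and Slc22a2 at 4.43, the highest of the 6 arrays in both. Aged replicate 1 followed, with 4.87 and 4.12, and it was the highest array for Slc22a8 (9.13) and Slc22a4 (3.98). Carriers outside the 63 genes that are known from kidney and the arachnoid stood out more. The organic cation exporter Slc47a1, itself among the arachnoid barrier markers, was at 6.99 on young replicate 3 and at 3.95 to 4.83 elsewhere, and the dicarboxylate carrier Slc13a3 at 7.06 and at 4.31 to 5.04 elsewhere. The gap junction gene Gjb2 and the retinoid-binding gene Crabp2, both among the arachnoid barrier markers, were at 7.46 and 6.29 on that array and no higher than 6.19 and 4.67 on the others. Markers of the same list did not all follow, since Cdh1 was at 6.51 there and at 7.86 and 8.09 on aged replicates 2 and 3, and Krt18 at 8.22 there and at 8.38 to 8.54 on the aged arrays. All 10 arachnoid barrier markers were above the guide on at least 1 array, and 7 of them on all arrays. Aged replicate 1 had the highest mean of 8 neuron and glia markers, 7.69, and aged replicate 2 the lowest, 5.60. The part of adjoining tissue in these carrier values was not tested.

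**Figure D4:**
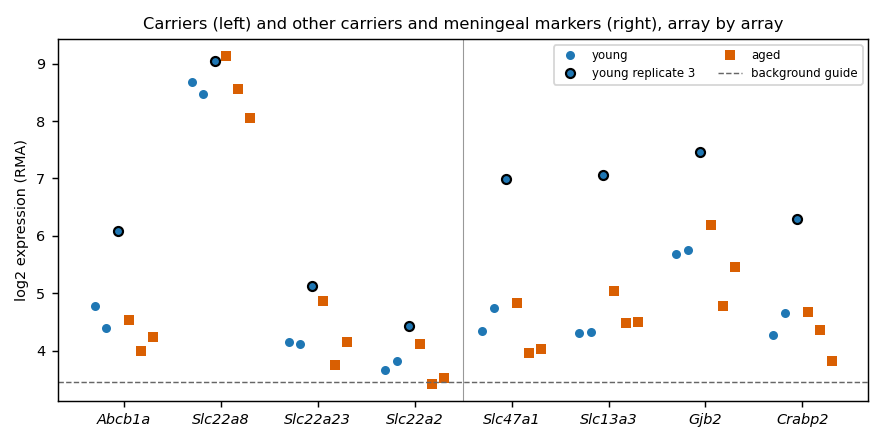
Log2 expression (vertical axis) of 4 carriers of the set (left) and of 2 other carriers and 2 arachnoid barrier markers (right), with 1 point per array in the order young 1 to 3 and aged 1 to 3. Young replicate 3 (outlined) is the highest array in 7 of the 8 genes, and aged replicate 1 is higher for Slc22a8.

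Of the 9 multidrug resistance proteins and relatives of the Abcc family, 4 were above the guide on all arrays. None of the 9 had an unadjusted p under 0.05 with limma, where 7.77% of all probe sets did, and so few genes do not set the family apart. Abcc1, which exports glutathione and glucuronide conjugates, stood at 8.03, 7.88 and 7.80 in young and at 8.08, 8.10 and 8.07 in aged. All aged values lay above the young ones, with a difference of 0.18 (95% interval -0.06 to 0.43, limma adjusted p = 0.741). Abcc4, which exports cyclic nucleotides, prostaglandins and nucleoside drugs, was at 7.45, 7.41 and 7.29 in young and at 7.25, 7.41 and 7.66 in aged. Its groups overlapped, the interval ran from -0.25 to 0.37, and without aged replicate 3 the difference was -0.05 in place of 0.06. Abcc10, a pump of lipophilic drugs, stood at 5.34, 4.89 and 5.35 in young and at 5.36, 5.35 and 5.46 in aged. Its groups did not overlap, but the difference of 0.20 was 0.05 without young replicate 2. Abcc5, an exporter of cyclic nucleotides, ranged from 5.79 to 6.16 in young and from 5.70 to 5.97 in aged. Abcc3, an exporter of glucuronides, had the smallest p of the family. It stood at 3.25, 2.97 and 3.42 in young and at 3.51, 3.42 and 3.73 in aged, around the guide, with a difference of 0.34 (SE 0.15, limma adjusted p = 0.646).

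Abcg2, the breast cancer resistance protein that expels drugs and urate, was the gene with the largest positive difference of the 63. It stood at 6.13, 6.00 and 6.00 in young and at 6.31, 6.48 and 7.16 in aged. All aged values lay above the young ones, and aged replicate 3 was well above the rest. The means were 6.04 ± 0.08 and 6.65 ± 0.45 (SD, n = 3 each), a difference of 0.61 (SE 0.21), or 1.52-fold, with a limma adjusted p of 0.544. Without aged replicate 3 the difference was 0.35 (limma adjusted p = 0.669). Endothelial markers, given above, had a lower mean on every aged array than on any young one. The macrophage markers, also given above, had their highest mean, 5.17, on aged replicate 3. The part of either cell type in the Abcg2 values was not tested. Abcg4, a sterol exporter, ranged from 5.55 to 5.71 in young and from 5.40 to 6.01 in aged. The intestinal and hepatic sterol pumps Abcg5 and Abcg8 ranged from 3.38 to 3.91 and from 2.89 to 3.30 over all arrays, and Abcg3, a gene of rodents, from 2.25 to 2.63.

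Genes that work with these carriers were read from lists. Of 15 transcription factors and partners known to regulate drug transporters, limma called 0 over all genes. At an unadjusted p under 0.05 with limma, 1 was higher and 2 were lower. Over all probe sets 3.82% were higher and 3.96% lower by that rule. The aryl hydrocarbon receptor Ahr stood at 5.26, 5.07 and 5.02 in young and at 4.66, 4.86 and 4.81 in aged, a difference of -0.34 (SE 0.12, limma adjusted p = 0.546). The bile acid receptor Nr1h4 ranged from 3.28 to 3.89 in young and from 2.98 to 3.05 in aged, around the guide (difference -0.58, limma adjusted p = 0.433). The pregnane X receptor Nr1i2, the higher gene, lay below the guide on every array. Nfe2l2, the antioxidant response regulator, ranged from 8.25 to 8.39 in young and from 8.13 to 8.30 in aged. The list median difference was -0.04.

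The other lists also held 0 called genes, and their counts at an unadjusted p under 0.05 stand beside the same shares over all probe sets. No test was run on a list. Of 6 membrane scaffold genes, which anchor carriers to the cytoskeleton, none had an unadjusted p under 0.05 with limma and 0 were called (median difference -0.08). Of 11 other organic ion carriers 0 were called, and 1 was lower at an unadjusted p under 0.05, the bile salt carrier Slc10a1, which lay below the guide on every array (list median difference -0.07). The monoamine carrier Slc29a4 of this list stood at 9.56, 9.64 and 9.88 in young and at 9.96, 9.88 and 9.70 in aged. Of 10 conjugation enzymes on the arrays 0 were called and 1, the glutathione transferase Gstt1, was higher at an unadjusted p under 0.05 (median difference 0.09). Gstt1 stood at 6.48, 6.85 and 6.85 in young and at 7.27, 7.16 and 6.995 in aged, with a difference of 0.41 (SE 0.14, limma adjusted p = 0.541). Among 24 genes of the Abca, Abcd, Abce and Abcf families 0 were called (median difference 0.01). At an unadjusted p under 0.05 the higher ones were Abca3 (0.37) and Abca7 (0.33), and the lower ones Abca9 (-0.70) and Abca6 (-0.49).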

How the data were processed

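Choroid plexus RNA of 6 mice, 3 per age group, was hybridised to 1 expression array each. The authors deposited log2 expression values per Brainarray probe set, per the file headers. RMA and limma 3.14.4 are named in the submitters' processing notes. The array model, the probe set version and a genome build were not given in the sources used here. A second deposited table repeats these log2 values rounded (largest difference 0.005). Array columns were matched to samples by the array number in the labels.

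All 25206 probe sets were fitted with limma 3.58.1 in R 4.3.3 (lmFit, eBayes) with 1 term for age and no filter. P-values were adjusted over all of them by Benjamini-Hochberg, with a threshold of 0.05. Errors are SD or moderated SE, and intervals are at 95%. The fit was tested on simulated data. No detection calls were used. A background guide of 3.46 replaced them, and 40.8% of probe sets had a mean below it. RMA compresses differences near background and near the top of the scale. Array number limits precision.

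The members and lists were chosen with earlier results of these data known. Named genes were members with an unadjusted p under 0.05, detected members without overlap, up to 6 detected members per family, and a fixed set. Others were added after their values were seen. Values of some members are not reported here, though the counts include them. All 63 members matched a RefSeq gene by Entrez identifier. Deviations of same-numbered arrays from their group means correlated at -0.02, 0.23 and -0.08 over 14920 probe sets. Differently numbered arrays were not compared in this way, so the values do not settle whether the numbers pair the mice. The main fit had no pairing term, and a fit with the replicate number as a block is among the alternatives below.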

Additional observations from a re-analysis of the deposited data

How the results depend on the processing

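The count of genes called at a limma adjusted p under 0.05 was 0 in both directions under all 14 alternatives, while the unadjusted counts moved. Few probe sets of any kind were called, 20 in the main fit. In the alternatives that number ran from 0, without young replicate 2 or aged replicate 2, to 52, without aged replicate 1. A member count of 0 therefore says little about the members. With array weights and with the replicate number as a block, 4 genes were higher at an unadjusted p under 0.05 in place of 2. Over the fits without 1 array the higher count ran from 2 to 4 and the lower count from 1 to 4. For the alternatives the share of all probe sets past the unadjusted rule was not computed. A change of the members therefore cannot be told from a change over all probe sets. When only probe sets with a mean above the median were kept, which leaves fewer genes, the median difference of the members was -0.0204 in place of 0.0475. Of 29 named genes 10 changed sign in at least 1 alternative, each with a main difference of at most 0.26 in size. The cause was not tested. Over the fits without 1 array the differences ran from -0.0017 to 0.154 for Abcb10, from -0.0946 to 0.0057 for Abcb6, from -0.0504 to 0.152 for Abcc4, from -0.177 to 0.0047 for Abcc5, from -0.0412 to 0.155 for Slc22a17, from -0.51 to 0.12 for Slc22a23, from -0.40 to 0.29 for Slc22a4, from -0.42 to 0.12 for Slc22a8, from -0.172 to 0.0319 for Slco1a5 and from -0.0454 to 0.586 for Slco1b2. With array weights Slc22a4 was at 0.19. Slco3a1 kept its direction in all 14 alternatives, with differences of -1.15 to -0.90 and a lowest adjusted p of 0.0718. For genes near the background guide, signal limits what a difference can show.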
